A study of Mus musculus with 2 samples.

Results

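Interleukins are secreted or released signalling proteins that act between immune, stromal and epithelial cells, and interleukin receptors are the surface chains that read them. The genes described here were all rows whose name begins with Il and a digit in the table of all cells with both libraries together, which gave 62 genes of 20140. By known function they were 23 ligands, 33 receptor chains and 6 others (the decoy receptor Il1r2, the antagonist Il1rn, the binding proteins Il18bp and Il22ra2, the enzyme Il4i1 and the antisense transcript Il1bos). They were measured in droplet single-cell RNA libraries from the submandibular gland of female C57BL6/J mice aged 14 weeks. In the ligated group a metal clip had stayed for 14 days on the ducts that drain the submandibular and sublingual glands, and in the mock group the ducts were found but left unclipped, followed by the same 14 days. Each group was 1 library made from 2 glands, with no count of mice given, and cells bearing EpCAM (epithelium) or Ter119 (red cells) and dead cells had been depleted from both, so epithelial and red cells are those that escaped the depletion. With 1 library per group there is no replicate error and no test, and every difference below compares these libraries, not the conditions.

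Most interleukin receptors work as pairs of chains, in which a private chain binds the ligand and a shared chain passes the signal on. The common gamma chain Il2rg serves interleukins 2, 4, 7, 15 and 21, Il6st (gp130) serves interleukins 6 and 11 and their relatives, and Il1rap serves interleukins 1, 33 and 36. Most shared chains signal through Janus kinases and STAT factors, while receptors of the interleukin-1 and interleukin-17 families signal through adaptors such as Myd88 and Traf3ip2 to NF-kB. In injured glands and barrier tissues these genes are best known for alarm signals from stroma, survival signals for lymphocytes and growth factors for macrophages.

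The deposited values are cluster means, in unique molecules (UMIs) per 10000 of a cell. Cell numbers recovered from the means were 11406 (ligated) and 4199 (mock), and UMI totals recovered for single cells had medians of 6490 (2264 ligated totals) and 6572 (623 mock totals). Of 12 clusters, 9 held at least 50 cells in each library and were compared, and they were endothelial-like (clusters 0 and 4), natural killer-like (1), T cell-like (2), fibroblast-like (3), macrophage-like (5), mural-like (6), ductal-like (7) and erythroid-like (10), by marker lists. Cluster 9 was Schwann-like, and clusters 8 (led by acinar genes) and 11 (led by cycling genes with S100a8 and S100a9) were left unnamed. Recovered totals outnumbered the cells in cluster 11 (71 and 28 totals, 59 ligated and 22 mock cells) and in ligated erythroid-like cells (62 totals, 60 cells). Some totals are therefore not those of single cells, and the medians and the levels set from them are approximate. Median UMI totals of the ductal-like cells were 982.5 (ligated) and 1076.5 (mock), below those of the other compared clusters. Markers of other cell types reached a median of 7.30% to 22.8% of the library mean in the ligated clusters compared and of 1.91% to 9.38% in the mock clusters, and the ligated value was the higher one in each of the 9. No barcodes were in the tables used, so barcodes shared between the libraries could not be counted, and doublets were neither called nor removed here.

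More receptor chains than ligands were readily detected in this gland, and few interleukins themselves were seen. Of the 23 ligands, 6 reached 0.5 UMIs per 10000 in any cluster of all cells of either library (Il33, Il34, Il1b, Il16, Il18 and Il17d), against 18 of 33 receptor chains and 0 of 6 others. Among all genes, 7968 of 20140 reached that level. These are molecule counts not corrected for transcript length, so levels are compared below within a gene and not between genes. Classic secreted interleukins were at or near the limit of detection: the highest cluster level of Il6 was 0.0176, that of Il4 0.0105, that of Il10 0.00536, that of Il13 0.00363 and that of Il5 0.00106. Of the 62 genes, 9 had a value above 0 in the ligated library only (Il10, Il12a, Il12b, Il13, Il27, Il5, Il20ra, Il22ra2 and Il1bos) and 0 in the mock library only. The ligated library held more cells, and of all genes 3150 were above 0 in it alone, against 684 in the other library alone.

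The family was spread unevenly over the cell types. Counting, for each gene that reached 0.05 in some cluster with both libraries together, the cluster with its highest level, 10 of 45 members peaked in macrophage-like cells (22.2%, against 6.47% of all genes), 9 in T cell-like cells (20%, against 4.41%) and 5 in natural killer-like cells (11.1%, against 4.80%). Fibroblast-like cells held the peak of 6 members (13.3%, against 9.06%). No member peaked in endothelial-like cluster 0, the most populous cluster of the mock library, against 8.55% of all genes. For 45 of the 62 (72.6%, against 39.6% of all genes), more than 50% of the level summed over all cells lay in 1 cluster. That share also depends on how many cells a cluster holds: Il6st, at 0.1 or above in 11 of 12 clusters and highest in endothelial-like cluster 4, still had 60.5% of its sum in the populous endothelial-like cluster 0.

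**Figure D1:**
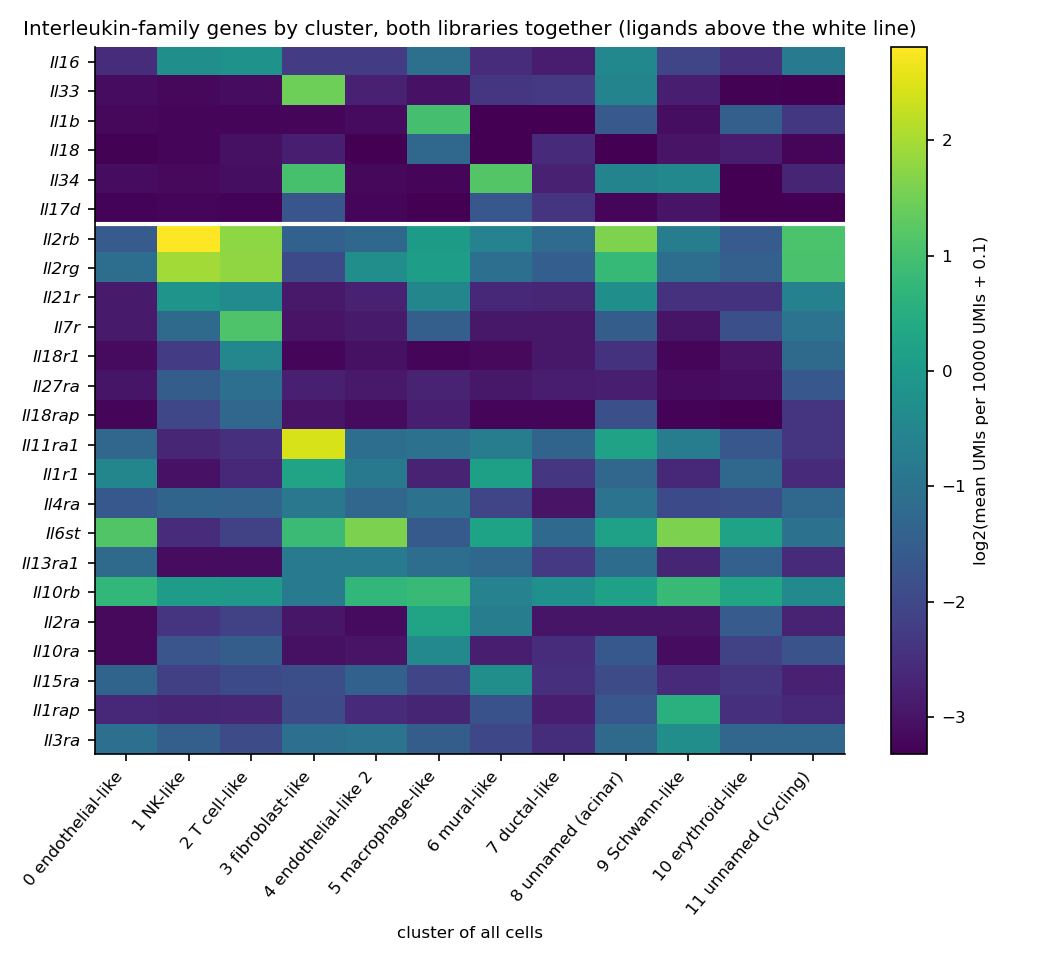
Level of the 24 members that reached 0.5 UMIs per 10000 (rows, ligands above the white line) in the 12 clusters of all cells (columns), both libraries together, as the colour of log2(mean UMIs per 10000 + 0.1). Il33 and Il11ra1 are brightest in fibroblast-like cells, Il1b in macrophage-like cells, Il7r in T cell-like cells and Il2rb in natural killer-like cells, while Il10rb is lit in every cluster.

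A gene was counted as different in a cluster where log2((ligated + 0.1)/(mock + 0.1)) reached 1 in either direction and the higher value reached 0.5. Over 9 clusters and 62 genes this rule was met in 11 of 558 pairs of a gene and a cluster, 6 higher and 5 lower in the ligated library. Over all genes 1.89% of pairs met it, 1.17% higher and 0.711% lower, and the members' share was 1.97%. Many members could not meet the rule because they did not reach its level: 54 of the 558 member pairs and 30884 of the 181260 pairs of all genes reached 0.5, and of these 20.4% and 11.1% passed. Neither share is read as particular to the family. The 11 pairs came from 8 genes: the ligands Il34 and Il17d and the receptor chains Il7r, Il18r1, Il13ra1, Il2rb, Il2rg and Il10rb. By role they were 2 of 207 pairs of ligands and 9 of 297 pairs of receptor chains. With a pseudocount of 1 only 2 pairs passed, Il34 in fibroblast-like and Il7r in T cell-like cells.

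**Figure D2:**
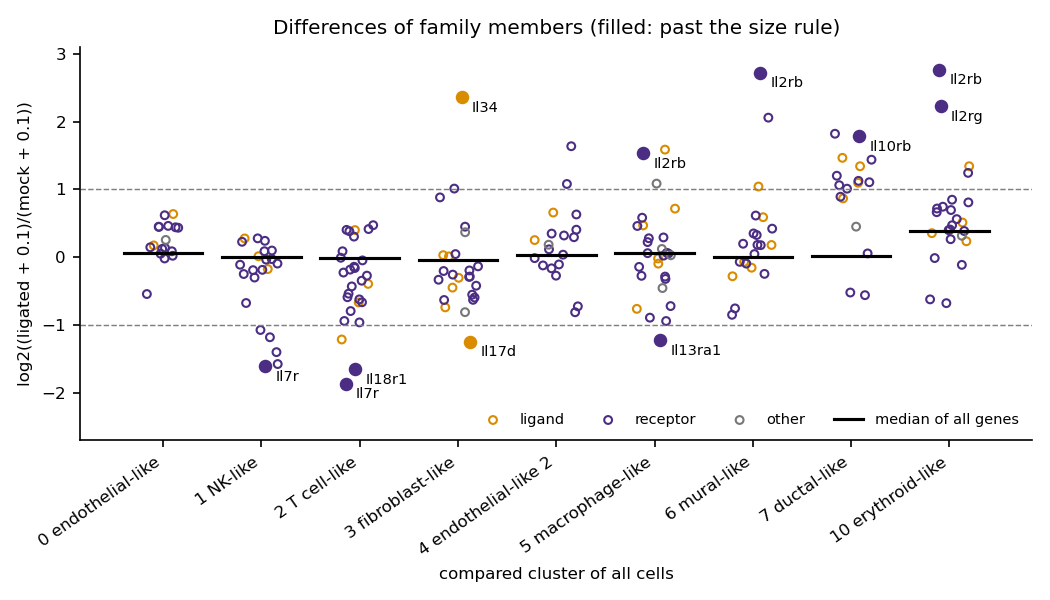
Difference of each member between the libraries, log2((ligated + 0.1)/(mock + 0.1)), in the 9 compared clusters; each point is 1 gene whose mean over both libraries is at least 0.05, filled points pass the size rule, the dashed lines mark a difference of 1 in size and the black bars are medians over all genes. Points below the lower line that pass the rule are Il7r and Il18r1 in lymphocyte clusters, Il17d in fibroblast-like and Il13ra1 in macrophage-like cells. The ductal-like points lie mostly above their bar (median 1.10 for members, 0.02 for all genes). That member median rests on 17 genes, and only 1 member reached the rule's level in ductal-like cells. There 3 UMIs at the median total would give 0.106 (ligated) or 0.147 (mock), both above the mean of 0.05 asked for. Markers of other cell types stood at a median of 22.2% (ligated) and 7.87% (mock) of the library mean there. Their part in the ductal-like median was not tested.

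Among the ligands, the largest difference that passed the rule was in Il34, which encodes interleukin-34, a second ligand of the macrophage growth factor receptor Csf1r. In fibroblast-like cells its level was 2.19 after ligation and 0.348 after mock surgery, a difference of 2.35 on the log2 scale. Below, values given in pairs are levels in the ligated library first and in the mock library after it. Among all genes 0.834% were higher and 0.993% lower by the rule in these cells. Mural-like cells, the other main source, had 2.08 and 2.33. So in the mock library Il34 was mainly a mural-like transcript, and in the ligated library fibroblast-like cells stood at the level of mural-like cells. The 188 mock fibroblast-like cells set a floor of 0.0114, the level that 3 UMIs would give at the median total, well under the mock value. In Schwann-like cells, with 17 mock cells, the values were 0.598 and 1.11, and the remaining compared clusters stayed at or below 0.0759 in both libraries.

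The separate table of cells chosen by the study for Pdgfra, Pdgfrb or Gli1 gave the same picture for Il34. These cells, 1935 ligated and 401 mock, come from the same libraries and are not an independent measurement. In the fibroblast-like cluster of that table Il34 was 2.30 and 0.357, a difference of 2.39. In its mural-like cluster the values were 2.71 and 2.82. Its endothelial-like cluster had 0.677 and 0.160, a difference of 1.58. Fibroblast markers summed to 74.4 in that ligated cluster and 27.6 in the mock one (9 of 11 genes higher), and their part in this last difference was not tested. In the fibroblast-like cells of all cells, summed mural markers were 6.55 and 3.70, with 7 of 10 genes higher in the ligated library, against 140 and 223 in mural-like cells themselves. With a share of the library mean profile subtracted, the Il34 difference in fibroblast-like cells was 2.35 again. Over 3 compared clusters of this table, 3 of 186 pairs of a member and a cluster passed the rule, against 1.91% over all genes. These were Il34 in its fibroblast-like cluster (0.884% of all genes higher there) and endothelial-like cluster (1.29%), and Il17d in the fibroblast-like one (0.988% lower).

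Csf1r, the receptor through which interleukin-34 acts on macrophages, was 5.35 in ligated and 4.94 in mock macrophage-like cells, a difference of 0.11. The receptor's difference was thus far under the rule's size, unlike that of the ligand in fibroblast-like cells. Il34 lies on chromosome 8 (chr8:110741829-110805924, minus strand, mm10) and overlaps exons of Gm15894 and Gm15895 on the opposite strand. Whether the counting used strand is not given in the sources used here, so reads from these partners cannot be told apart from Il34 without it.

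Il17d and Il33 were lower in ligated fibroblast-like cells, in contrast to Il34 in the same cells. Il17d encodes a little-studied interleukin-17 relative. Its level there was 0.161 and 0.522, a difference of -1.25. In the fibroblast-like cluster of the Pdgfra, Pdgfrb or Gli1 table it was 0.164 and 0.556, a difference of -1.31. The mock value lies just above the level of 0.5 that the rule asks for. Mural-like cells had 0.197 and 0.261, so the mock library's highest level, in fibroblast-like cells, was not matched in any ligated cluster.

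Il33 encodes the alarm cytokine interleukin-33, which is stored in the nucleus and released from damaged cells. It was the most restricted of the 6 ligands that reached 0.5: 87.8% of its summed level lay in fibroblast-like cells. There it was 2.39 and 4.06, a difference of -0.74 that did not pass the rule. In the fibroblast-like cluster of the Pdgfra, Pdgfrb or Gli1 table it was 2.50 and 4.02. Summed fibroblast markers were 292 in ligated and 355 in mock fibroblast-like cells, with 6 of 11 genes lower. In the other compared clusters Il33 stayed at or below 0.176, and 7 of 9 clusters had the higher value in the ligated library.

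No other ligand passed the rule in a compared cluster. Il1b, the inflammatory interleukin-1 beta, was 1.89 and 1.92 in macrophage-like cells, where 86.9% of its summed level lay. Il1a, its relative, was 0.360 and 0.233 in the same cells, and Il18, an inducer of interferon gamma, was 0.286 and 0.557. Macrophage-like cells were thus the peak of these ligands in both libraries. Il16, a lymphocyte attractant, was 0.759 and 0.611 in natural killer-like cells and 0.804 and 0.586 in T cell-like cells. Il15, a survival factor for natural killer cells, was broadly expressed and reached 0.472 and 0.214 in ductal-like cells and 0.352 and 0.350 in fibroblast-like cells. Il12b, the shared subunit of interleukins 12 and 23, was 0.200 in ligated macrophage-like cells and listed at 0 in the 77 mock ones, where the floor was 0.0341, and it was 0 in every other cluster. Il2 and Il7, growth factors for lymphocytes, did not exceed 0.193 and 0.0712 in any cluster. Of Il2 transcript sequence, 11.8% in runs of 60 bases also occurs in Ntan1, so the Il2 level is uncertain. Ntan1 ran from 0.601 to 2.54 over the clusters with both libraries together.

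**Figure D3:**
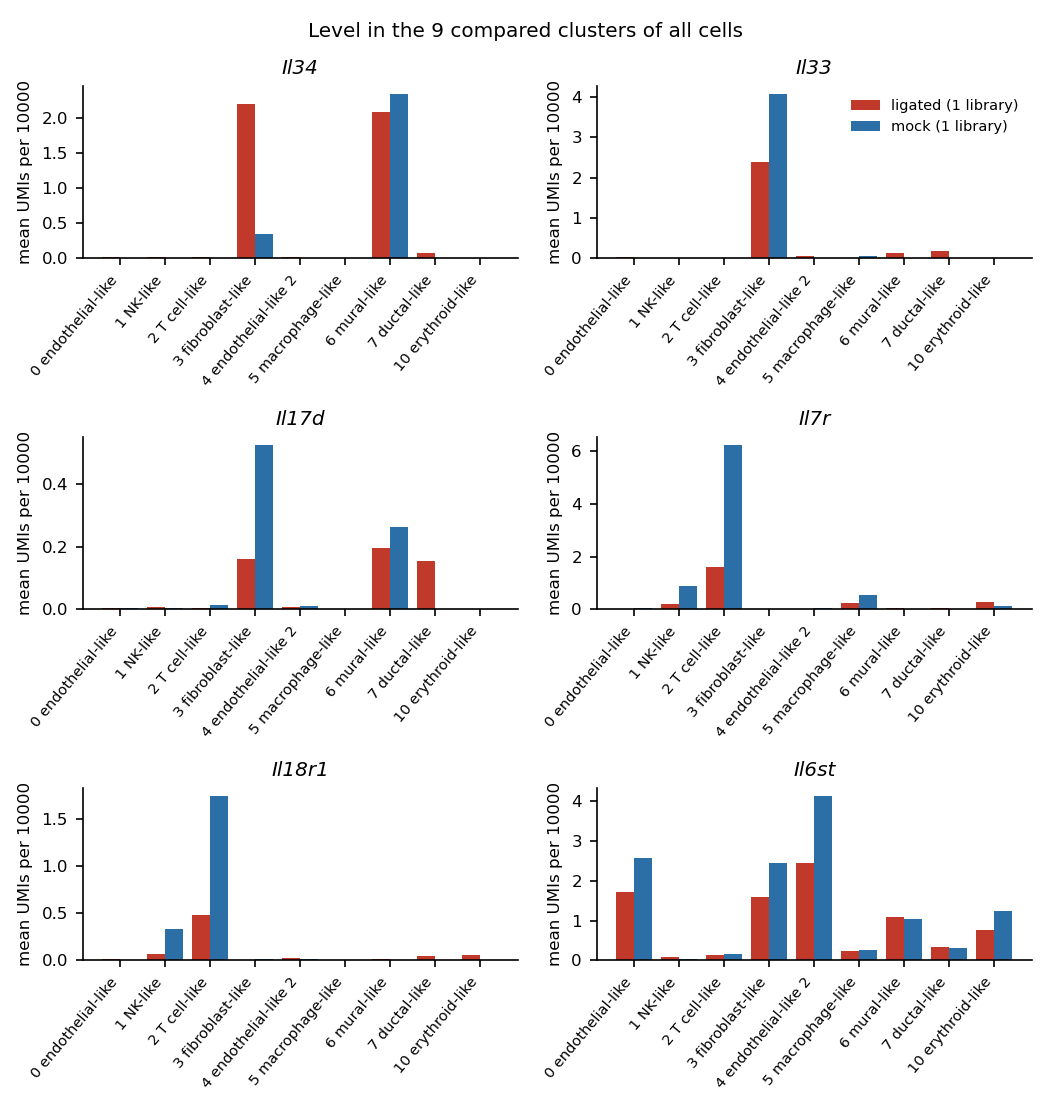
Mean UMIs per 10000 of 6 members in the 9 compared clusters, with 1 bar for the ligated library and 1 for the mock library and no error bars because each is 1 library. Il34 is 2.19 and 0.348 in fibroblast-like and 2.08 and 2.33 in mural-like cells, Il33 and Il17d are lower in ligated fibroblast-like cells, and Il7r, Il18r1 and Il6st have their tallest bars in mock cells.

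Among receptors, Il7r and Il18r1 were lower in lymphocyte clusters of the ligated library. Il7r is the private chain for interleukin-7, a survival signal of naive and memory T cells and of innate lymphoid cells. In T cell-like cells its level was 1.63 and 6.22, a difference of -1.87. In natural killer-like cells it was 0.225 and 0.891, a difference of -1.61. The lower values thus appeared in both lymphocyte clusters, and in 6 of 9 compared clusters in all. Il18r1, the ligand-binding chain for interleukin-18, was 0.483 and 1.74 in T cell-like cells, a difference of -1.66. In the compared clusters outside lymphocytes its levels were at most 0.0630, and it was lower in 3 and higher in 6 of the 9 clusters. Cluster 11, unnamed and not compared, had 0.335 with both libraries together. In these lymphocyte clusters 0.333% (T cell-like) and 0.223% (natural killer-like) of all genes were lower by the same rule.

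Several other lymphocyte receptor chains were also lower in lymphocyte clusters of the ligated library without passing the rule. Il18rap, the signalling partner of Il18r1, was 0.271 and 0.614 in T cell-like cells, a difference of -0.94. In natural killer-like cells Il18r1 was 0.0647 and 0.336, Il18rap 0.108 and 0.339, Il1rl1 (the interleukin-33 receptor) 0.0749 and 0.423, and Il2ra (the high-affinity interleukin-2 chain) 0.0588 and 0.261. In T cell-like cells Il23r, Il17a and Il17f, genes known from interleukin-17-producing lymphocytes, were 0.0278 and 0.150, 0.0272 and 0.0442, and 0.00251 and 0.138. The mock library held 155 T cell-like and 679 natural killer-like cells, which put the floors at 0.0266 and 0.00539. The signalling chains Il2rb and Il2rg, which read interleukins 2 and 15, differed by at most 0.30 in size in the same clusters. Il2rb was 6.81 and 7.37 in natural killer-like cells and 3.31 and 3.34 in T cell-like cells. Il2rg was 3.85 and 3.28 in the first and 3.40 and 2.74 in the second. Il21r and Il27ra, the receptors for interleukins 21 and 27, likewise differed by at most 0.47 in size in these clusters.

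In these cluster means, less receptor RNA per cell cannot be told apart from fewer cells that carry the receptor. In T cell-like cells the summed T cell markers were 67.5 and 47.6, with 10 of 11 genes higher in the ligated library. Summed natural killer markers were 37.8 and 30.6 there, with 8 of 10 lower. Markers of type 2 innate lymphoid cells, counted without the member Il1rl1, summed to 1.00 and 1.69 in T cell-like cells (5 of 6 lower). They summed to 0.930 and 1.74 in natural killer-like cells (6 of 6 lower). The part of these markers' cells in the Il7r and Il18r1 values was not tested. Subtracting a share of the library mean profile left both genes past the rule.

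Il7r and Il18r1 lie on different chromosomes, at chr15:9505788-9530176 on the minus strand and chr1:40465552-40500854 on the plus strand (mm10), and Il18r1 sits in a block of 6 members that span 477.6 kb (Il1r2, Il1r1, Il1rl2, Il1rl1, Il18r1 and Il18rap). Since both were lower in the same cells, the sequence before their RefSeq starts is shown, on the gene's own strand and without annotated exon bases. The capitals mark the letters TTCNNNGAA, the spacing that STAT factors are known to bind. The first stretch, 164 bases long, is chr15:9529877-9530040, next to the RefSeq start of Il7r, and the second, 159 bases long, is chr1:40465811-40465969, ending 36 bases before that of Il18r1. Both lie within the longer GENCODE gene spans, between exons.
Il7r: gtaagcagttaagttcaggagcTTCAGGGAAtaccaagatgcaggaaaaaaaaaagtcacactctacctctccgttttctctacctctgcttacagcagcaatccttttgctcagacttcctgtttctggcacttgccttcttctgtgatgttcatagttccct
Il18r1: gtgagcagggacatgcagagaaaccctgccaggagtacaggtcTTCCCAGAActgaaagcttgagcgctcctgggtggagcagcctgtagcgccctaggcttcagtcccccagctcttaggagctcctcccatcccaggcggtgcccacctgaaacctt
The STAT motif, searched on both strands in the 250 bases before each RefSeq start (GRCm38.p6), was in 7.02% of 32851 windows of all genes and in 5 of 62 windows of members. Motifs of the factors AP-1, RUNX and NF-kB were searched as well. They were in 14.52%, 19.35% and 8.065% of member windows, against 6.749%, 14.05% and 1.412% of all windows. Stretches of the same kind before Il17d, Il13ra1 and Il2rg, at most 200 bases long, held none of these motifs and are not printed. Il2rg did have a RUNX motif in the 250 bases searched, outside that stretch. A match is a run of letters, not a measured site. Windows were found for 48 of the 62 members.

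In macrophage-like cells Il13ra1 and Il2ra were lower in the ligated library and Il2rb was higher. Il13ra1, a chain of the receptors for interleukins 4 and 13, was 0.311 and 0.862, a difference of -1.23. The same gene was 0.452 and 0.537 in fibroblast-like cells and 0.391 and 0.264 in endothelial-like cluster 0, values closer to each other than in macrophage-like cells. Il2ra was 1.03 and 1.76, a difference of -0.72 that did not pass the rule. Il4ra, the partner of Il13ra1, was 0.375 and 0.480, and Il10ra, the private chain for interleukin-10, was 0.654 and 0.547. The mock values rest on 77 cells. Summed macrophage markers were 219 and 183, with 10 of 12 genes higher, and of all genes 0.655% were higher and 0.685% lower by the rule in these cells.

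Il2rb passed the rule as higher in 3 clusters where it is not a known marker: macrophage-like (0.976 and 0.271, a difference of 1.54), mural-like (0.758 and 0.0301, a difference of 2.72, where 0.993% of all genes were higher) and erythroid-like cells (0.578 after ligation and listed at 0 after mock surgery, where the floor was 0.0331). Natural killer markers were higher in sum there too, and their part in the Il2rb differences was not tested. Their sum over 10 genes was 8.10 and 3.68 in macrophage-like cells, 5.71 and 0.107 in mural-like cells and 4.38 and 0.0791 in erythroid-like cells, and Eomes and Prf1 were listed at 0 in the mock cells of the last 2. In the ligated library Il2rb amounted to between 8.36 and 14.3 UMIs per 100 UMIs of natural killer markers in all 9 compared clusters, and to 11.6 in natural killer-like cells themselves. In the mock library, where both were low outside lymphocytes, the same proportion ran from 0 to 28.2 and was 11.4 in natural killer-like cells. After a share of the library mean profile was subtracted the difference was 1.13 in macrophage-like, 1.23 in mural-like and 0.40 in erythroid-like cells, and none of them passed the rule because the ligated levels left, 0.417, 0.135 and 0.0319, were under 0.5; in macrophage-like and mural-like cells the difference was still over 1.

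**Figure D4:**
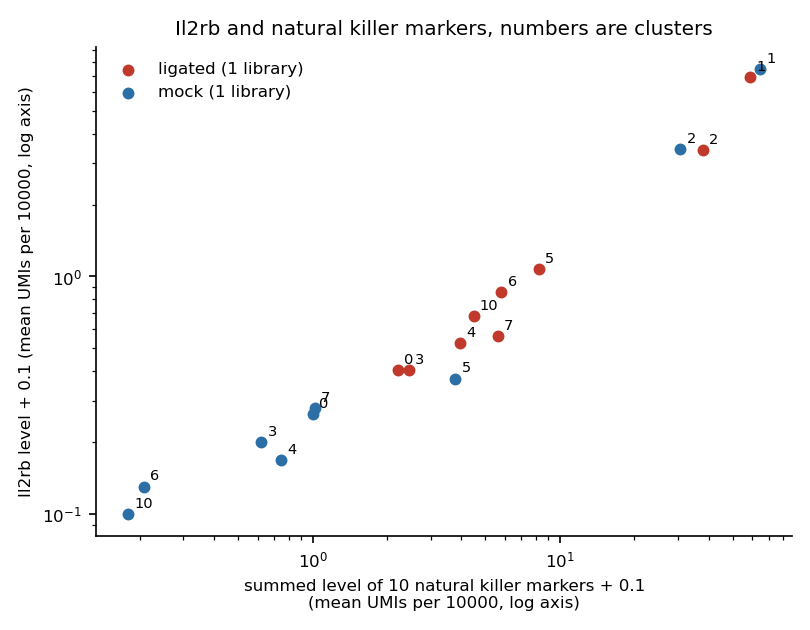
Level of Il2rb against the summed level of 10 natural killer markers in the 9 compared clusters, both with 0.1 added and on log axes in mean UMIs per 10000; each point is 1 cluster of 1 library and the numbers are the clusters. Natural killer-like (1) and T cell-like (2) points lie at the top right in both libraries, and ligated points of the other clusters lie above and to the right of their mock counterparts.

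Il2rg, which passed the rule in erythroid-like cells (0.578 and 0.0446, a difference of 2.23), no longer passed after the same subtraction because its level, 0.206, was under 0.5, while the difference was 1.49. Over all genes 3.42% were higher by the rule in erythroid-like cells, where the median of all genes was itself 0.39. Summed erythroid markers there were 1921 and 4415. Of Il2rg transcript sequence, 26.9% in runs of 60 bases also occurs in Gm20489, an overlapping gene model on the same strand. Il10rb, a shared chain of the interleukin-10 family, passed the rule in ductal-like cells with 1.10 and 0.249, a difference of 1.78, and differed by at most 0.25 in size in the other compared clusters except erythroid-like cells (0.85), with 1.60 and 1.55 in endothelial-like cluster 0 and 1.70 and 1.63 in macrophage-like cells. In ductal-like cells 2.39% of all genes were higher by the rule, and the summed ductal markers were 956 and 372. The low UMI totals put the floor of the mock ductal-like cells at 0.147, and 13.3% of Il10rb transcript sequence is shared with Gm21970.

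Receptors of stromal and vascular cells differed by smaller amounts and not all in 1 direction. Il6st, the gp130 chain, was 1.73 and 2.57 in endothelial-like cluster 0, 2.45 and 4.12 in endothelial-like cluster 4 and 1.58 and 2.45 in fibroblast-like cells. These differences, -0.55, -0.73 and -0.60, did not pass the rule, and 6 of 9 compared clusters had the lower value in the ligated library. Mural-like cells did not share it, with 1.09 and 1.05. Il11ra1, the interleukin-11 receptor, was 5.13 and 6.50 in fibroblast-like cells, which held 67.1% of its summed level, and was higher in the ligated library in the other 8 of 9 compared clusters, as in the library mean (0.742 and 0.509). Its sequence is 41.9% shared with Il11ra2 and Gm13305, so reads could be split or dropped there and its level is uncertain. Gm13305 itself did not exceed 0.00651 in any cluster with both libraries together. Il1r1, the signalling receptor for interleukin-1, was 1.02 and 1.55 in fibroblast-like cells and 1.06 and 0.926 in mural-like cells. Il15ra, which presents interleukin-15 to neighbouring cells, was highest in mural-like cells, with 0.802 and 0.490.

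Schwann-like cells (271 ligated and 17 mock) were not compared, but held the highest levels of several receptors with both libraries together. Il1rap, the shared chain of interleukin-1 receptors, was 1.38 there and at most 0.219 in any other cluster. Il1rapl1, a synaptic relative of it, was 0.382 there and at most 0.00780 elsewhere. Il3ra, the private interleukin-3 chain, was 0.718 and Il17rc, a chain of the interleukin-17 receptor, 0.425. The smallest cluster of the Pdgfra, Pdgfrb or Gli1 table, a fibroblast-like one of 17 ligated and 10 mock cells, stood apart too: Il33 was 1.23 and 4.29 in it, Il18 0.904 and 0.584, Il17ra 0.734 and 1.06, and Il1rl2, the interleukin-36 receptor, 1.34 and 0.171. With so few cells these values have no more than descriptive use.

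Decoys and antagonists stayed under 0.5 in every cluster of all cells. Il1rn, the natural antagonist of the interleukin-1 receptor, was 0.0947 and 0.167 in macrophage-like cells, where 89.8% of its summed level lay. Il1r2, the interleukin-1 decoy receptor, was 0.0903 and 0.234 in fibroblast-like cells, and 0.177 and 0.962 in the smallest cluster of the Pdgfra, Pdgfrb or Gli1 table, with its 17 and 10 cells. Il18bp, which binds and blocks interleukin-18, was 0.201 and 0.152 in endothelial-like cluster 0. It was higher in the ligated library in each of the 9 compared clusters, by at most 0.45. After subtraction of a share of the library mean profile, its difference in mural-like cells was -0.11. In the Pdgfra, Pdgfrb or Gli1 table it was lower in the endothelial-like cluster (0.116 and 0.141) and higher in the compared fibroblast-like and mural-like clusters. Il4i1, a secreted amino acid oxidase of myeloid cells that overlaps Nup62, was 0.327 and 0.101 in macrophage-like cells.

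Averaged over whole libraries, several members differed less once both libraries were given the same mixture of cells. Natural killer-like cells made up 29.4% of ligated and 16.2% of mock cells, T cell-like cells 12.2% and 3.69%, and endothelial-like cluster 0 25.8% and 56.3%. The library mean of Il2rg was 1.86 and 0.859, a difference of 1.03, and it was the only member to pass the rule (2.37% of all genes passed it). With the ligated clusters weighted by the mock library's mixture, the Il2rg difference was 0.36. That of Il2rb went from 0.88 to 0.10 and that of Il6st from -0.97 to -0.52. For Il34, whose library means of 0.343 and 0.114 are under the rule's level, it went from 1.05 to 0.51. Other members moved the other way. Il7r went from -0.37 to -1.17: the ligated library held a larger share of T cell-like cells, and Il7r was lower in them. Il18r1 went from -0.25 to -0.64, Il15ra from 0.14 to 0.40 and Il13ra1 from -0.01 to 0.31. Il33 changed sign, from 0.42 to -0.22.

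**Figure D5:**
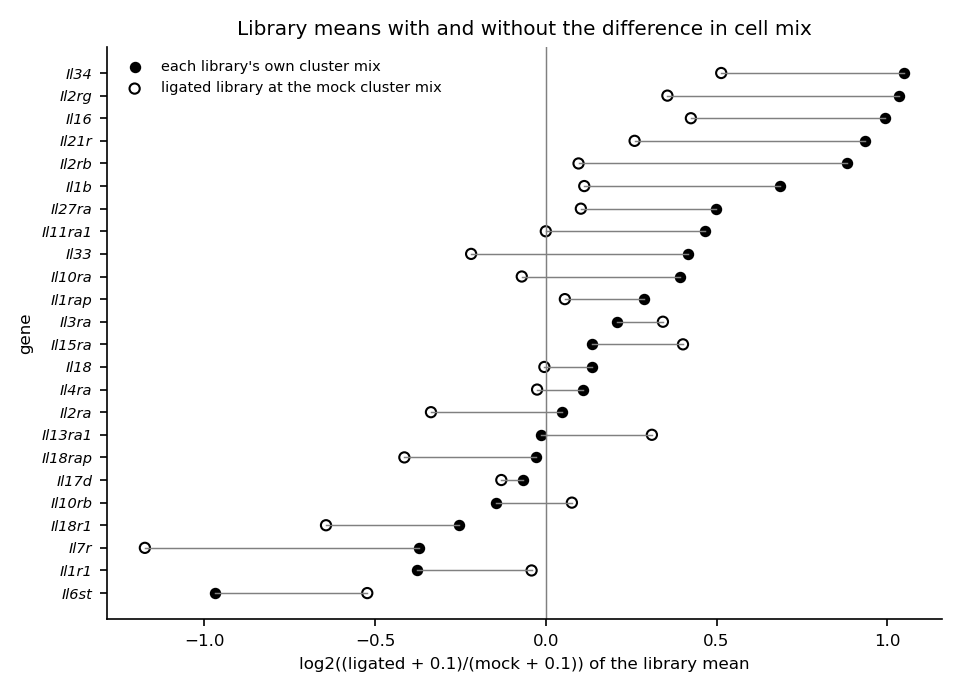
Difference of the library mean, log2((ligated + 0.1)/(mock + 0.1)), of the 24 members that reached 0.5 in some cluster, with each library at its own mixture of clusters (filled) and with the ligated clusters weighted by the mock mixture (open). Filled points run from Il6st at -0.97 to Il34 at 1.05, and Il2rg, Il2rb and Il11ra1 lie much nearer 0 at the mock mixture.

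Genes that carry interleukin signals inside the cell, taken as 66 genes outside the family in 6 lists, passed the rule in 11 of 594 pairs (1.85%), 9 higher and 2 lower. Of the 131 pairs that reached 0.5, 8.40% passed, against 11.1% for all genes. All but 1 of the higher pairs were in ductal-like or erythroid-like cells. Elsewhere Crlf2, the receptor for thymic stromal lymphopoietin that pairs with Il7r, was higher in ligated fibroblast-like cells (0.823 and 0.317, a difference of 1.15). Lifr, a partner of Il6st, was lower in ligated endothelial-like cluster 4 (1.53 and 3.24, a difference of -1.03, just past the rule). That cluster had the largest Il6st level among those compared, and 0.546% of all genes were lower by the rule in it. Over the 9 compared clusters Lifr was lower in 6 and higher in 3. Of the 4 Janus kinases 1 passed, Jak1 in erythroid-like cells (2.09 and 0.965). Of 14 adaptors and kinases 2 passed as higher in erythroid-like cells (Tab2 and Nfkbiz), and of 8 genes that process interleukin-1 family precursors 1 did (Pycard). Among 12 feedback inhibitors Socs2 passed in ductal-like cells and Ptpn6 in ductal-like and erythroid-like cells, and Ctf1, a gp130 ligand, was lower in ductal-like cells. Socs3, a feedback inhibitor induced through Il6st, did not pass the rule and was chosen after its values were seen. It was 0.252 and 0.551 in fibroblast-like cells, 0.489 and 0.965 in macrophage-like cells and 0.161 and 0.365 in T cell-like cells. The feedback inhibitors as a list did not share this, with median differences of -0.125, 0.180 and -0.006 in the same clusters. A link of Socs3 to Il6st was not tested.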

How the data were processed

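The authors deposited 4 tables of cluster means, 1 pair for all cells in 12 clusters and 1 pair for 5 clusters of cells chosen for Pdgfra, Pdgfrb or Gli1, each with both libraries together and split. The deposited values (unit other, neither counts nor CPM) are linear means of UMIs per 10000, as the values show: every column sums to 10000. The submitters' processing notes name Cell Ranger 6.0.1, Seurat and mm10; cell filters and clustering are not given in the sources used here. Every column was mapped, 0 were left without a sample, and 21 gene names turned into dates were restored.

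Each joint value is the weighted mean of the split values (largest residual 2.4e-07), and the weights gave the cell numbers. Medians of differences use genes whose mean over both libraries is at least 0.05. The size rule (pseudocount 0.1, difference of at least 1, higher value of at least 0.5, at least 50 cells in each library) was tested on simulated data. The simulated clusters held well over 50 cells in each library, no RNA from other cell types and no changed gene near 0.5. So the simulation cannot show how the rule behaves at its limits or with such RNA. Values are given for members that reach 0.5 in some cluster of either library and the others by counts and by name, with some of these, Csf1r and Socs3 chosen after their values were seen. An immediate early list was counted apart from the signalling genes, and 1 signalling gene is counted but not reported here by name. Clusters carry a name from marker lists. The members, lists and rules were chosen with earlier results of these data known. Alternatives were another pseudocount, level, size, centring, cell minimum, mixture and subtraction of a share of the library mean profile. Positions are GENCODE M21 (GRCm38, which is mm10) and promoter windows RefSeq. Python 3.11.15, numpy 2.4.6, pandas 2.3.3 and matplotlib 3.10.9 were used.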

Additional observations from a re-analysis of the deposited data

How the results depend on the processing

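No paired analysis was possible because each group is 1 library and the labels carry no replicate numbers. The count of 11 pairs of a member and a cluster of all cells was 13 with a pseudocount of 0.01 and 2 with 1; 35 with no minimum level and 2 with a level of 2; 4 with a difference of at least 2; 24 with at least 15 cells; 12 with centring, 8 after subtraction (2 higher, 6 lower) and 8 without clusters 7 and 10, the last chosen after seeing the data. The count of 3 in the Pdgfra, Pdgfrb or Gli1 table was 1 with a pseudocount of 1, a level of 2 or a difference of 2, and 5 with no minimum. The count of 11 for signalling genes was 17 with a pseudocount of 0.01, 0 with 1 or with a difference of 2, 34 with no minimum and 2 with a level of 2; after subtraction it was 3 higher and 5 lower, and with centring 5 higher and 4 lower. In library means the count of 1 was 0 at the mock mixture, with a pseudocount of 1 or with a level of 2, and 2 with a pseudocount of 0.01 or no minimum; with equal cluster weights it was 1, Il7r, lower. Of the 14 single differences past the rule, 11 no longer passed with a pseudocount of 1. After subtraction 4 no longer passed, and their levels were under 0.5. None changed direction with centring or subtraction. Another pseudocount or cutoff could not change a direction, so these alternatives say nothing on it. The count of 45 for levels across the clusters was the same with cell numbers from least squares weights. It could not differ, because each cluster's total of cells is the same under both sets of weights. Few mock cells in the T cell-like, macrophage-like and Schwann-like clusters limit what their values can show.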
